A study of Mus musculus with 16 samples.

Results

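The odorant receptor genes Olfr90 to Olfr137 lie in a cluster on mouse chromosome 17 that is linked to the major histocompatibility complex (MHC). The members described here are the probe sets whose symbol is Olfr followed by a number, from Olfr90 to Olfr137. Symbols with -ps, which marks pseudogenes, were left out, as were Olfr99 and Olfr110. The range of numbers used no measured value. Olfr99 and Olfr110, however, had sort differences outside the range of the members. Earlier results of these data were known when the members were chosen. The rule gave 41 members among 22206 tested probe sets, 1080 of which belong to odorant receptors of any chromosome. Of the 48 numbers in that range, 7 have no member. The RefSeq gene table placed all 41 members on chromosome 17.

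The values come from Clariom S arrays hybridized with RNA from sorted cells of the olfactory mucosa, which had been dissociated. Every mouse carried the S100a5-tauGFP reporter, in which a GFP fused to tau marks cells that use the S100a5 gene. The 24 mice of both sexes, 7 to 12 weeks of age, were pooled by 3, and 4 pools received each stimulus. All animals were kept singly in chambers with clean air flowing at 3.1 L/min for 40 h. From 26 h on they received 10 s pulses every 20 min, of filtered air in the vehicle pools and of 1-pentanethiol in the odor pools. The sample labels and the title name 1-pentanethiol, while the design text names bourgeonal, and the sample labels were followed. Each pool gave 1 GFP+ and 1 GFP- array, so the 4 groups were vehicle GFP+, vehicle GFP-, odor GFP+ and odor GFP- cells with 4 arrays each.

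Odorant receptors are G protein-coupled receptors of olfactory sensory neurons, and a mature neuron transcribes 1 allele of 1 receptor gene. S100a5 is a calcium-binding protein gene whose expression in these neurons rises with activity, so the GFP+ cells are enriched for neurons with a history of activity. The assay therefore asks which receptor mRNAs are more abundant in GFP+ than in GFP- cells, and for which of them this excess is larger after odor than after filtered air. The MHC encodes the class I and class II antigen-presenting proteins, and a receptor cluster beside it is found in mouse and human. The MOR names used below sort mouse receptors into families by protein similarity.

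In RefSeq order the members run from Olfr90 to Olfr136, with Olfr137 just before the last member. Between these ends the table holds 78 gene models. They include the 41 members, 12 Olfr entries with -ps in the symbol and 5 other Olfr genes. The 3 protein-coding models without an Olfr symbol are H2-M3 and H2-M2, which encode non-classical class I proteins, and Ubd, a ubiquitin-like gene. A MOR family name was listed for 40 members. MOR256 holds 16 of them, MOR218 holds 9, MOR263 holds 7, MOR156 holds 4, MOR250 holds 3 and MOR121 holds 1, which is Olfr96. Olfr111 has none. Olfr124 is listed as MOR256-3, a receptor known as SR1 that is broadly tuned and abundant in the septal organ.

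RefSeq windows of 250 bases before to 50 bases after the start of the gene model were held for 32 members, on the build GRCm38.p6. In 21 of the 32 the model starts at the ATG, so the window lies before the coding start and not before a transcript start. The members of a family can be near copies in this stretch. Of 496 pairs of members with a window, 15 aligned over at least 100 columns of the 250 upstream bases, and all 15 were pairs of 1 family, as were 110 of the 496 pairs. The adjacent MOR218 genes Olfr113, Olfr114 and Olfr115 are shown first. They were picked because their upstream stretches align while the measured difference of Olfr114 was unlike those of Olfr113 and Olfr115. Other aligned pairs had closer values. Olfr118 and Olfr120 share 87% of 223 columns, with GFP+ minus GFP- differences of 0.24 and -0.08 in vehicle pools. Olfr119 and Olfr122 share 87% of 247, with 0.14 and -0.4. Olfr113 and Olfr114 share 86.1% of 252 aligned columns, Olfr114 and Olfr115 share 86.1% of 230, and Olfr113 and Olfr115 share 86.7% of 226. The printed stretches lie at chr17:37575452-37575651, minus strand (Olfr113), chr17:37590382-37590576, minus strand (Olfr114) and chr17:37610786-37610984, minus strand (Olfr115). Capitals mark bases of Olfr113 that differ from Olfr114 or are missing from it in the alignment, and bases of Olfr114 and Olfr115 that differ from Olfr113 or are missing from it.
Olfr113: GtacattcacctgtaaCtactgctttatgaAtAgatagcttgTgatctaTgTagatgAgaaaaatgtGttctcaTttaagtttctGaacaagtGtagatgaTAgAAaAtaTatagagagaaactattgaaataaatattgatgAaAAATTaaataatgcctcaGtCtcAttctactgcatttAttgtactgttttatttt
Olfr114: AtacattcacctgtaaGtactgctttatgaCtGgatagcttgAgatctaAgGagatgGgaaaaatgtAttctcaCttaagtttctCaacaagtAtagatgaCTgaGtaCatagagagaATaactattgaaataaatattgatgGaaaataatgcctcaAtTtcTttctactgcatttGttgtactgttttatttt
Olfr115: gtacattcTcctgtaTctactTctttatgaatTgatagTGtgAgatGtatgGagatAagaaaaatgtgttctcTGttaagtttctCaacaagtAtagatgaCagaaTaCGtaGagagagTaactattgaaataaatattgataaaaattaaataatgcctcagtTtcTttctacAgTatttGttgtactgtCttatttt
The upstream windows of Olfr101 and Olfr124 are shown because these members had the largest excess in GFP+ cells among the vehicle pools and the largest positive change of that excess with odor. They are 250 bases each, at chr17:37300485-37300734, minus strand (Olfr101) and chr17:37804819-37805068, plus strand (Olfr124), and capitals mark a motif match.
Olfr101: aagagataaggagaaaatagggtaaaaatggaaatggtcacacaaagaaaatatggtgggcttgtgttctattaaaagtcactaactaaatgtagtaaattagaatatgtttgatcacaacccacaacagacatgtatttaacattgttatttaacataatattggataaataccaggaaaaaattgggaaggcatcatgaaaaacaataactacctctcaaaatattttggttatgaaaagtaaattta
Olfr124: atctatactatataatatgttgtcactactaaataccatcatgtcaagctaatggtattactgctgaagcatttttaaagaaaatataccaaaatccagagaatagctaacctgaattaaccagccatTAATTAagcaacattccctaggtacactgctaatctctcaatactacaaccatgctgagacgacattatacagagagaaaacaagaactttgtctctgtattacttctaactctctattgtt

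Sequence motifs were searched on both strands. CCCNNGGG, the core of the site bound by the EBF (Olf1) factors of olfactory neurons, occurred in the 300-base window of 4 of the 32 members (12.5%), of 3.09% of 940 odorant receptors and of 15.4% of all 27025 genes with a window. Before the model start alone it occurred in 2 members, Olfr98 and Olfr108, against 2.77% of receptors and 13.4% of genes. TAATTA, a homeodomain core, occurred in 4 members (12.5%) against 18.7% of receptors and 6.12% of genes. TATAAA occurred in 9 members (28.1%) against 41.4% of receptors and 15.7% of genes. The 2 EBF core matches before the start sit in stretches of like sequence, at chr17:37263826-37263855, minus strand (Olfr98) and chr17:37445362-37445391, plus strand (Olfr108), with the match in capitals.
Olfr98: tctttctgtttCCCTAGGGagccattttta
Olfr108: tctttatgtctCCCTAGGGagacattttta
Both genes belong to MOR156, and a match is a string of letters and no measured binding.

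The reporter gene itself was higher in GFP+ cells, by 0.87 ± 0.12 (SE) in vehicle pools and 0.99 ± 0.12 in odor pools on the log2 scale (limma, adjusted p = 3.51e-05 and 7.79e-06). Omp, the marker of mature olfactory neurons, differed by 0.05 ± 0.10 and 0.03 ± 0.10 and did not pass. Markers of several other cell types were lower in GFP+ cells, though not all of them. All 8 neutrophil markers were lower in GFP+ cells of both stimuli, with a mean level of 15.25 to 15.99 in vehicle GFP- and 6.84 to 7.92 in vehicle GFP+ arrays, and 14.68 to 15.90 against 7.02 to 8.52 after odor. Of 8 immature neuron markers 7 were lower in both sorts, with means of 12.36 to 13.15 against 10.43 to 11.08 in vehicle and 12.28 to 13.11 against 10.57 to 11.11 in odor arrays. All 6 B lineage and lymphocyte markers and all 5 microvillar cell markers were lower too, as were 4 of 6 markers of basal and dividing cells. Cd3g, Chat and Neurog1 are among these, but all their group means lay under 6.25, the negative control median given below. Of 6 sustentacular cell markers 2 were lower in vehicle and 4 in odor pools, and of 6 macrophage markers 3 in both. Of 5 vascular and stromal markers 1 was higher and 1 lower in vehicle pools, and 0 were higher and 1 lower in odor pools. Of 10 mature neuron markers 2 were higher, with means of 16.94 to 16.97 against 16.99 to 17.2. The part of these cell types in the receptor results was not tested. Array medians over the tested probe sets were 7.38 to 7.45 in GFP+ and 7.71 to 7.78 in GFP- arrays. The negative control entries, which show nonspecific signal, had a median of 6.25, but 7.28 on the array of vehicle GFP+ replicate 2 against 6.22 to 6.38 on the remaining 3 of its group.

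In the vehicle pools 10 members (24.4%) were higher and 10 (24.4%) lower in GFP+ than in GFP- cells. Over all tested probe sets 9.34% were higher and 11.8% lower (limma, Benjamini-Hochberg adjusted p under 0.05, the threshold used throughout). The other 1039 odorant receptors were higher in 37.4% and lower in 24.4% of cases. In the odor pools 9 members (22%) were higher and 13 (31.7%) lower, against 11.3% and 11.9% of all probe sets and 37.2% and 27% of the other receptors. The median difference of the members was -0.01 in vehicle and -0.04 in odor pools, while that of the other receptors was 0.29 and 0.28 and that of all probe sets 0.11 and 0.13. The members ranged from -4.82 (Olfr116) to 3.64 (Olfr101) in vehicle pools and from -5.57 to 3.40, the same genes, in odor pools. Olfr99 and Olfr110, which lie in the cluster and are no members, were outside these ranges, Olfr99 at -5.31 ± 0.47 and -5.77 ± 0.47 and Olfr110 at 4.83 ± 0.35 and 5.80 ± 0.35, so the members do not span the whole cluster. The fractions did not overlap on any array for 6 higher and 10 lower members in vehicle pools (11.7% and 12% of all probe sets) and for 9 higher and 11 lower in odor pools (14.4% and 12.3%). A bulk value cannot tell fewer cells that use a receptor from less of its RNA per cell.

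How many members count as higher or lower depended on the scale. Setting all array medians equal shifted the median difference of all probe sets by 0.348 in vehicle and 0.326 in odor pools, and gave 15 higher and 9 lower, and 13 higher and 10 lower. Setting the medians of all odorant receptors equal shifted that median in vehicle pools by -0.228 and gave 8 higher and 12 lower. Quantile normalization gave 12 higher and 11 lower in odor pools. Without vehicle GFP+ replicate 2, the array with the high negative controls, 11 members were higher and 9 lower in vehicle pools.

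The vehicle sort and the odor sort come from separate arrays, although the fit gives them 1 estimate of spread. Of the members called, 9 were higher in both, 9 lower in both and 0 opposite. These 18 are 90% of the 20 called in vehicle pools and 81.8% of the 22 called in odor pools. Differences over the 41 members had a Pearson r of 0.961 and a Spearman rho of 0.944, given as a description, with 36 of the same sign. In 21 members the GFP+ array was on the same side of the GFP- array in all 8 pools, above in 10 and below in 11. The counts of agreement between sorts and between pools were made for the members only. How usual such agreement is among all probe sets or the other odorant receptors was not tested. Olfr131 and Olfr132 passed in vehicle pools only, and Olfr96, Olfr97, Olfr111 and Olfr128 in odor pools only. None of these 6 passed the test of the change between the sorts, and 17 members passed in neither sort.

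**Figure D1:**
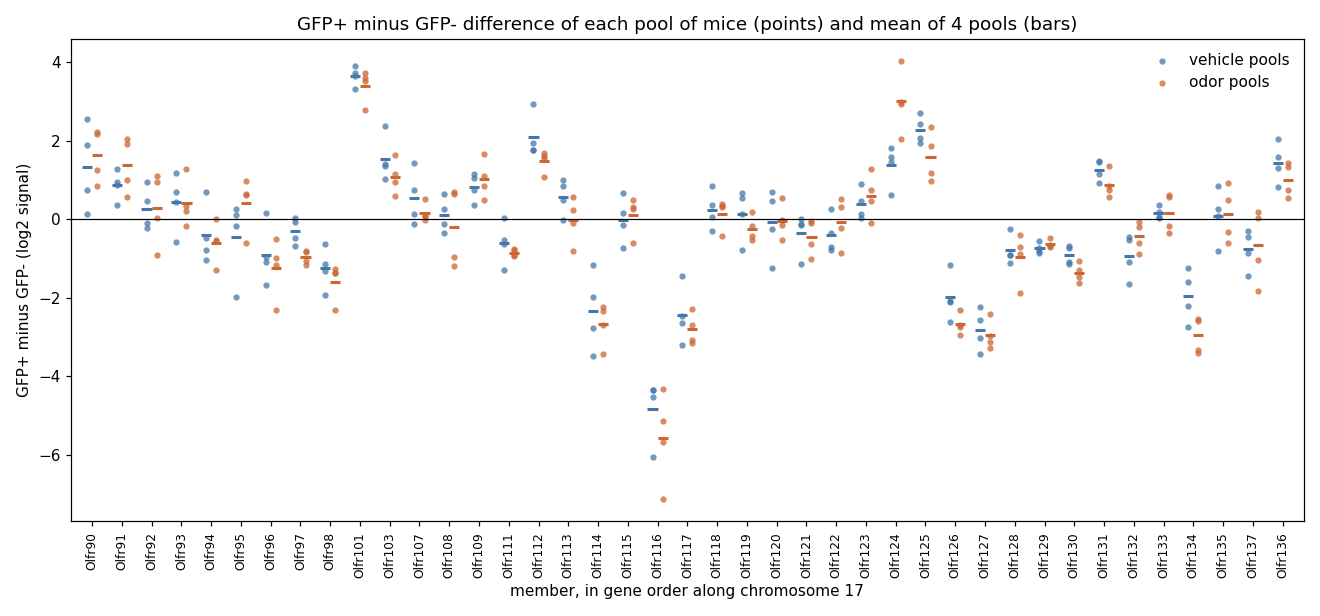
GFP+ minus GFP- difference (log2 signal) of each member in gene order along chromosome 17, with 1 point per pool of 3 mice and a bar at the mean of 4 pools, blue for vehicle and orange for odor. Olfr101 stands at the top with means of 3.64 and 3.40, and Olfr116 at the bottom with -4.82 and -5.57.

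MOR250 was the family in which every member was higher. All 3 of its members, Olfr101, Olfr103 and Olfr109, passed in both sorts, with a median of 1.54 in vehicle and 1.08 in odor pools. Families were read for members only, so genes such as Olfr99 and Olfr110 are in no family count. Of all probe sets 9.34% and 11.3% were higher, and of the other odorant receptors 37.4% and 37.2%. Olfr101 had log2 signals of 8.76, 8.15, 8.53 and 9.26 in the 4 vehicle GFP- arrays and 12.05, 12.05, 12.26 and 12.90 in the vehicle GFP+ arrays. In odor pools it had 9.41, 8.54, 9.48 and 9.23 against 12.93, 12.26, 12.25 and 12.82. Every GFP+ array was well above every GFP- array. The difference was 3.64 ± 0.26, a 12.5-fold excess (adjusted p = 1.76e-08), in vehicle pools and 3.40 ± 0.26 (adjusted p = 4.09e-08) in odor pools. The pool differences of Olfr101 lay between 2.77 and 3.90.

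Olfr103 had 8.77, 8.15, 8.79 and 7.96 in vehicle GFP- and 10.17, 9.50, 9.83 and 10.34 in vehicle GFP+ arrays. The odor pools gave 8.81, 8.14, 8.80 and 9.12 against 10.43, 9.28, 9.74 and 9.72. The groups did not overlap, and the excess was 1.54 ± 0.27 (adjusted p = 0.000363) and 1.08 ± 0.27 (adjusted p = 0.00759). Olfr109 was higher by 0.82 ± 0.26 (adjusted p = 0.0318) in vehicle pools, where its groups overlapped, and by 1.03 ± 0.26 (adjusted p = 0.00821) in odor pools. Its vehicle call was lost under 7 of 16 alternatives, with an adjusted p of up to 0.1.

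MOR218 spanned the widest range. Of its 9 members 2 were higher (22.2%) and 4 lower (44.4%) in vehicle pools, and 2 higher (22.2%) and 5 lower (55.6%) in odor pools. Of all probe sets 9.34% were higher and 11.8% lower in vehicle pools, and 11.3% and 11.9% in odor pools. Of the other odorant receptors it was 37.4% and 24.4%, and 37.2% and 27%. The higher members were Olfr112 and Olfr125. Olfr112 had 11.09, 10.73, 11.07 and 11.01 in vehicle GFP- and 13.03, 12.49, 12.83 and 13.95 in vehicle GFP+ arrays. After odor the values were 11.36, 10.97, 11.12 and 11.47 against 13.04, 12.58, 12.19 and 13.02. The GFP+ arrays were all above the GFP- arrays, by 2.10 ± 0.25 (adjusted p = 6.63e-06) and 1.48 ± 0.25 (adjusted p = 0.000303).

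Olfr125 had 9.0, 8.23, 7.79 and 8.88 in vehicle GFP- arrays and 10.21 to 11.57 in the 4 vehicle GFP+ arrays. Its odor arrays read 9.21, 8.25, 8.77 and 8.56 against 10.19, 10.09, 9.96 and 10.90. Again no array overlapped between the fractions. The excess was 2.28 ± 0.32 (adjusted p = 4e-05) and 1.59 ± 0.32 (adjusted p = 0.00144).

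The lowest member was Olfr116, also of MOR218. It had 14.35, 13.72, 13.74 and 14.31 in vehicle GFP- and 9.99, 9.36, 9.21 and 8.26 in vehicle GFP+ arrays. With odor the signals were 14.32, 13.81, 13.62 and 14.06 against 9.98, 8.13, 8.50 and 6.92. The gap between the fractions was far wider than the spread within them, although the GFP+ arrays varied by up to 1.26 (SD) in odor pools. The difference was -4.82 ± 0.46 (28.3-fold lower, adjusted p = 4.8e-07) and -5.57 ± 0.46 (47.4-fold lower, adjusted p = 9.06e-08).

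Olfr114 had 10.36, 9.85, 9.02 and 9.85 in vehicle GFP- and 8.39, 7.06, 7.85 and 6.37 in vehicle GFP+ arrays. In odor pools it had 10.14, 10.23, 9.13 and 9.48 against 7.45, 6.81, 6.88 and 7.15. It was lower in every pool, by -2.35 ± 0.37 (adjusted p = 0.000136) and -2.67 ± 0.37 (adjusted p = 3.45e-05). On 2 vehicle GFP+ arrays the signal of Olfr114 lay under the negative control median of the same array. Its neighbours, whose upstream sequences are printed above with its own, were not called in either sort. Olfr113 differed by 0.57 ± 0.28 and -0.03 ± 0.28 (adjusted p = 0.165 and 0.956). Olfr115 differed by -0.01 ± 0.35 and 0.11 ± 0.35 (adjusted p = 0.983 and 0.848). Receptors of a family are close in sequence, and how far the probes of 1 member also catch RNA of another was not tested.

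Olfr126 and Olfr127, adjacent MOR218 genes, were also lower. Olfr126 had 9.65, 9.32, 9.24 and 10.02 in vehicle GFP- and 8.49, 7.21, 7.16 and 7.41 in vehicle GFP+ arrays. The odor pools gave 10.38, 10.16, 9.81 and 9.95 against 7.69, 7.42, 7.51 and 7.00. Its differences were -1.99 ± 0.26 (adjusted p = 1.59e-05) and -2.67 ± 0.26 (adjusted p = 5.11e-07), and its fractions did not overlap. On 1 vehicle GFP+ array its signal lay under the negative control median of the same array.

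Olfr127 had 8.55, 8.21, 8.46 and 8.19 in vehicle GFP- and 5.13, 5.18, 5.90 and 5.95 in vehicle GFP+ arrays. After odor the values were 8.71, 8.58, 8.60 and 8.08 against 6.29, 5.29, 5.63 and 4.95. Its mean in GFP+ cells, 5.54 for both stimuli, lay under the median of the negative controls, so the level there is not above nonspecific signal. The measured difference was -2.81 ± 0.26 (adjusted p = 2.41e-07) and -2.95 ± 0.26 (adjusted p = 1.38e-07). Olfr128, the next gene, was lower by a smaller amount, -0.79 ± 0.28 (adjusted p = 0.0571) in vehicle pools, where it did not pass, and -0.97 ± 0.28 (adjusted p = 0.0192) in odor pools. On 3 GFP+ arrays the signal of Olfr128 lay under the negative control median of the same array.

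**Figure D2:**
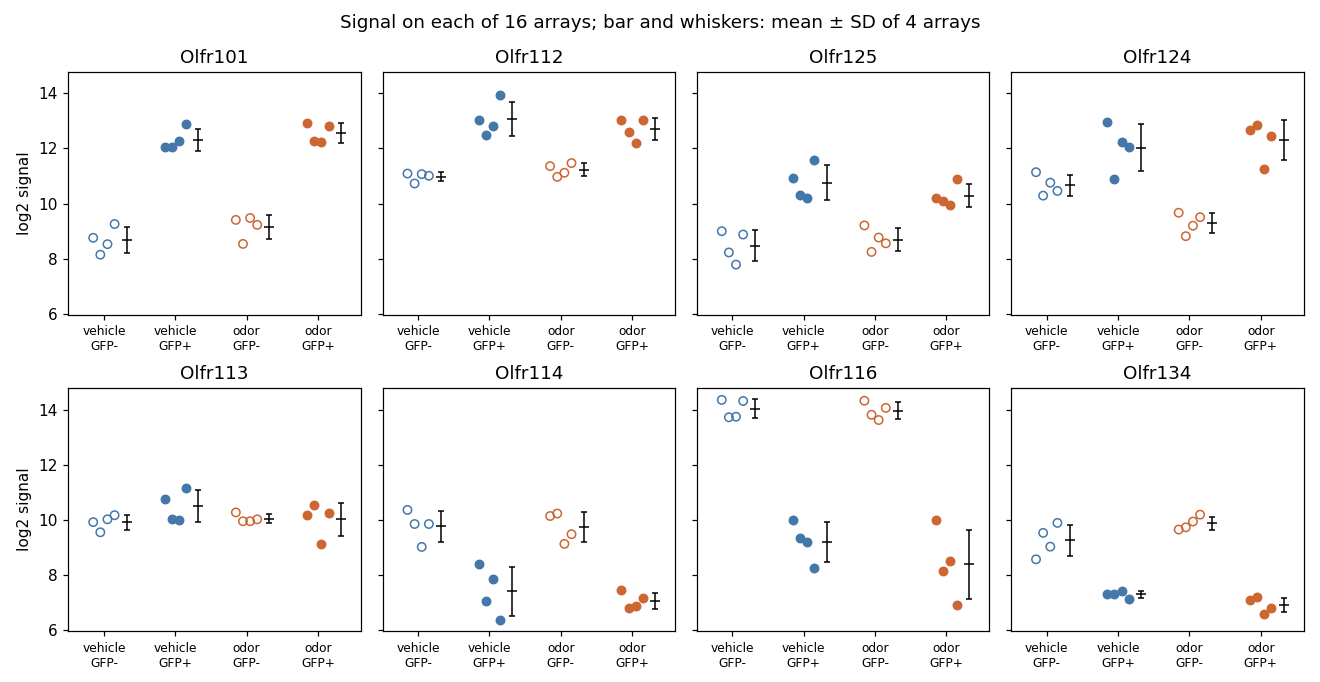
Log2 signal of 8 members on each of the 16 arrays, open circles for GFP- and filled circles for GFP+ cells, blue for vehicle and orange for odor, with a bar and whiskers at the mean ± SD of 4 arrays. Olfr101, Olfr112 and Olfr125 are higher and Olfr114, Olfr116 and Olfr134 lower in GFP+ cells of both stimuli, while Olfr124 is lower in odor GFP- than in vehicle GFP- arrays.

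MOR256, the largest family among the members, was mixed. Of its 16 members 5 were higher (31.2%) and 4 lower (25%) in vehicle pools, and 4 higher (25%) and 3 lower (18.8%) in odor pools. Of all probe sets 9.34% were higher and 11.8% lower in vehicle pools, and 11.3% and 11.9% in odor pools. Of the other odorant receptors it was 37.4% and 24.4%, and 37.2% and 27%. The higher members in both sorts were Olfr90, Olfr91, Olfr124 and Olfr136. Olfr136, the last member in gene order, had 11.30, 10.59, 10.96 and 11.12 in vehicle GFP- and 12.87, 11.89, 11.78 and 13.16 in vehicle GFP+ arrays. Its odor arrays read 11.49, 11, 11.22 and 11.12 against 12.22, 12.33, 11.74 and 12.54. The fractions were apart, by 1.43 ± 0.27 (adjusted p = 0.000758) and 1.00 ± 0.27 (adjusted p = 0.0128).

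Olfr90, the first member, had 7.40, 7.63, 7.61 and 7.19 in vehicle GFP- and 9.28, 7.76, 8.35 and 9.72 in vehicle GFP+ arrays. With odor the signals were 8.11, 7.43, 7.74 and 6.87 against 8.96, 9.60, 9.0 and 9.09. The lowest vehicle GFP+ value was only just above the GFP- arrays. It came from replicate 2, whose negative controls were high. The excess was 1.32 ± 0.34 (adjusted p = 0.00894) and 1.62 ± 0.34 (adjusted p = 0.00187). The next gene, Olfr91, was higher by 0.86 ± 0.28 (adjusted p = 0.0357), a call lost under 8 of 16 alternatives, and by 1.38 ± 0.28 (adjusted p = 0.00142). Olfr131 was higher by 1.25 ± 0.31 (adjusted p = 0.0071) in vehicle pools and by 0.88 ± 0.31 (adjusted p = 0.0516) in odor pools. With the pool of mice as a block, the odor difference of Olfr131 passed at an adjusted p of 0.00175.

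Olfr117, Olfr130 and Olfr134 were the MOR256 members lower in both sorts. Olfr117, which follows Olfr116 in gene order, had 13.54, 12.90, 12.66 and 13.09 in vehicle GFP- and 10.88, 10.43, 11.22 and 9.88 in vehicle GFP+ arrays. In odor pools it had 13.57, 13.05, 12.96 and 13.21 against 10.88, 9.98, 10.67 and 10.06. Its fractions were clearly apart, with differences of -2.44 ± 0.27 (adjusted p = 2.79e-06) and -2.80 ± 0.27 (adjusted p = 5.54e-07).

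Olfr134 had 8.57, 9.53, 9.03 and 9.89 in vehicle GFP- and 7.32, 7.31, 7.43 and 7.14 in vehicle GFP+ arrays. The odor pools gave 9.65, 9.73, 9.94 and 10.19 against 7.08, 7.19, 6.60 and 6.79. It was lower by -1.95 ± 0.22 (adjusted p = 3.79e-06) and -2.96 ± 0.22 (adjusted p = 3.01e-08). On vehicle GFP+ replicate 2 its signal was 7.31, against a negative control median of 7.28 on that array. On odor GFP+ replicate 3 it was 6.60 against 6.48. The size of both differences may be limited by nonspecific signal. Olfr133 and Olfr135, the genes on either side, share 82.8% of 239 and 81.5% of 205 aligned upstream columns with Olfr134. With each other they share 81.7% of 218 columns. Their sort differences were 0.15 ± 0.25 and 0.09 ± 0.27 in vehicle pools, and they passed in neither sort.

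Olfr130 had 12.65, 12.22, 12.09 and 12.54 in vehicle GFP- and 11.55, 11.53, 11.35 and 11.42 in vehicle GFP+ arrays. After odor the values were 12.62, 12.40, 12.42 and 12.35 against 11.33, 11.34, 10.80 and 10.89. Its spread was narrow, so differences of -0.91 ± 0.15 (adjusted p = 0.000234) and -1.36 ± 0.15 (adjusted p = 2.91e-06) were well resolved. Olfr132 was lower in vehicle pools by -0.93 ± 0.30 (adjusted p = 0.0345). That call was lost under 7 of 16 alternatives, and without vehicle GFP+ replicate 2 the difference was -0.63 (adjusted p = 0.107). In odor pools Olfr132 differed by -0.44 ± 0.30 (adjusted p = 0.302).

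MOR263 was the family with the smallest differences. Of its 7 members only Olfr129 passed (14.3%, against 11.8% and 11.9% of all probe sets lower), and it was lower in both sorts. It had 12.47, 12.33, 11.96 and 12.42 in vehicle GFP- and 11.91, 11.53, 11.23 and 11.57 in vehicle GFP+ arrays. Its odor arrays read 12.43, 12.13, 12.15 and 12.17 against 11.73, 11.66, 11.47 and 11.51. The fractions did not overlap, and the differences were -0.73 ± 0.15 (adjusted p = 0.00152) and -0.63 ± 0.15 (adjusted p = 0.00556). With array medians set equal the odor difference of Olfr129 was -0.30 and no longer passed (adjusted p = 0.0877). The 6 other MOR263 members had differences of -0.46 to 0.41 over both sorts.

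In MOR156, Olfr98 was lower in both sorts. It had 10.38 ± 0.24 (SD, n = 4) in vehicle GFP- arrays, none under 10.05, and 9.30, 9.13, 9.43 and 8.67 in vehicle GFP+ arrays. With odor the signals were 10.75, 10.62, 10.08 and 10.35 against 9.37, 9.25, 8.80 and 8.03. GFP+ arrays were below GFP- arrays throughout, by -1.25 ± 0.25 (adjusted p = 0.00136) and -1.59 ± 0.25 (adjusted p = 0.000137). Olfr97 was lower in odor pools by -0.97 ± 0.22 (adjusted p = 0.00372) and differed by -0.30 ± 0.22 (adjusted p = 0.355) in vehicle pools. Olfr108 lay under the negative control median of its own array on all 16 arrays, with group means of 5.28 to 5.48, so no difference is given. It was the only member under that level in all 4 groups.

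Of the members outside these families, Olfr96 of MOR121 differed by -0.90 ± 0.33 (adjusted p = 0.0666) in vehicle pools and was lower by -1.24 ± 0.33 (adjusted p = 0.0123) in odor pools. Olfr111 differed by -0.61 ± 0.27 (adjusted p = 0.126) and was lower by -0.85 ± 0.27 (adjusted p = 0.033). With the pool of mice as a block, Olfr111 and Olfr128 also passed in vehicle pools, at an adjusted p of 0.0329 and 0.0287. The odor calls of Olfr111 and Olfr128 were lost under 6 and 5 of 16 alternatives.

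**Figure D3:**
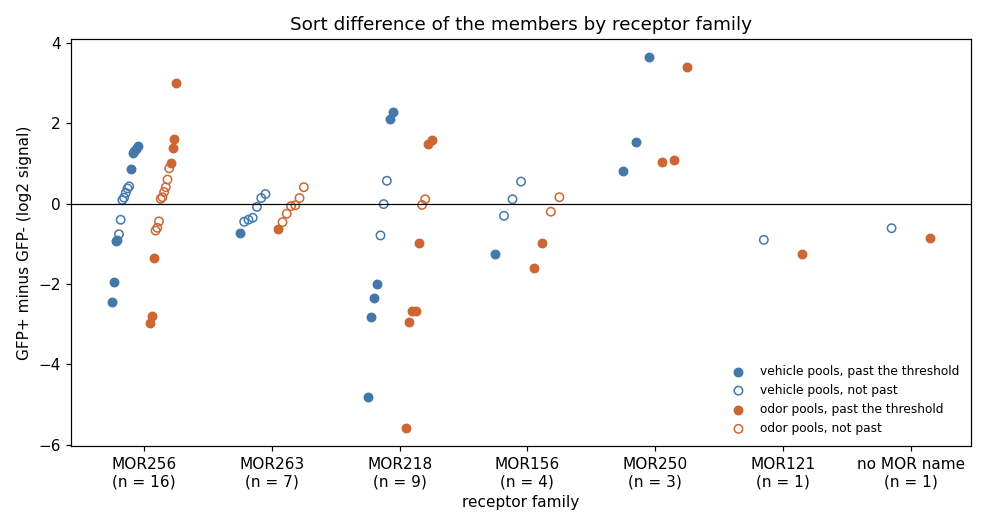
GFP+ minus GFP- difference (log2 signal) of each member by receptor family, blue for vehicle and orange for odor pools, filled where the adjusted p was under 0.05. The 3 MOR250 members are all above 0, the 9 MOR218 members run from -4.82 to 2.28 in vehicle pools, and the 7 MOR263 members stay between -0.73 and 0.41.

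Position in the cluster and family were set against the mean of the vehicle and odor differences. Neighbours here are members next to each other once genes that are no members, Olfr99 and Olfr110 among them, are skipped. The absolute gap between such neighbours had a median of 0.96 over 40 pairs, against 1.37 over 780 other pairs. It was 1.22 over 186 pairs of 1 MOR family and 1.38 over 634 pairs of different families. Of the 40 neighbouring pairs, 26 were of 1 MOR family, and their median gap was also 1.22. Families were unlike each other in this respect, with a median gap of 0.28 and a largest gap of 0.87 in MOR263 (21 pairs) and a median of 2.64 in MOR218 (36 pairs). Neighbours could be far apart, and among members the widest gap, 5.24, was between Olfr115 and Olfr116. Pairs share members and are not independent, so these gaps are a description and were not tested.

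No member passed in a comparison of odor with vehicle. In GFP+ cells 0 of 41 passed, with 1 at an unadjusted p under 0.05 (limma), while 0.0766% of all probe sets passed, all of them higher with odor and 0% lower, and 7.15% had such an unadjusted p. In GFP- cells 0 passed and 3 had an unadjusted p under 0.05, against 0.0495% of all probe sets that passed (0.00901% higher, 0.0405% lower) and 2.61% with such a p. For the change of the GFP+ excess with odor, 0 passed and 3 had an unadjusted p under 0.05, against 0.063% (all of them higher) and 4.65% of all probe sets. The medians of the members were -0.03, 0.11 and -0.19 in these 3 comparisons, and those of the other odorant receptors -0.05, 0.10 and -0.17. Members whose groups did not overlap were 0 higher and 1 lower in GFP+ cells (1.75% and 1.1% of all probe sets) and 0 higher and 1 lower in GFP- cells (1.24% and 1.37%). For the change of the excess they were 1 higher and 2 lower (1.85% and 1.46%). Among the other receptors 9, 9 and 14 passed in the same order. A p that missed the threshold does not show that a receptor was unaffected. The 95% intervals for the change of the excess reached down to -2.13 (Olfr116) and up to 2.77 (Olfr124).

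**Figure D4:**
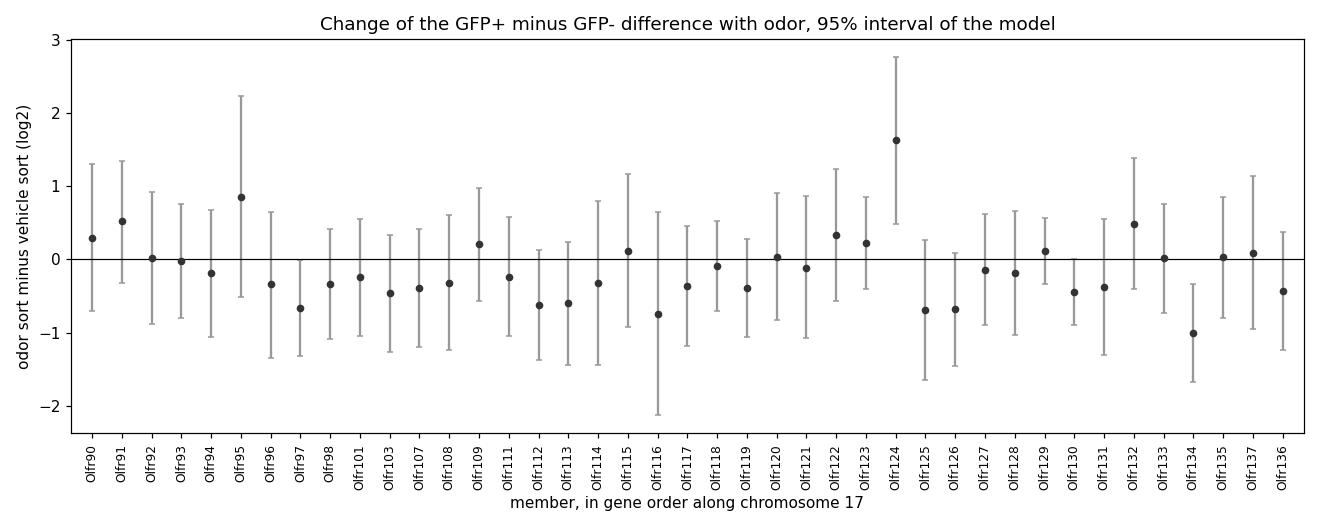
Change of the GFP+ minus GFP- difference with odor (odor pools minus vehicle pools, log2) of each member in gene order, as a point with the 95% interval of the model. The Olfr124 interval, 0.49 to 2.77, lies above 0 and the Olfr134 interval, -1.68 to -0.34, below 0, and neither passed after adjustment over all probe sets.

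Olfr124, the broadly tuned receptor, had the largest positive change. It had 11.14, 10.29, 10.76 and 10.46 in vehicle GFP- and 12.96, 10.91, 12.22 and 12.05 in vehicle GFP+ arrays. In odor pools it had 9.67, 8.82, 9.20 and 9.51 against 12.67, 12.85, 11.24 and 12.44. All odor GFP- arrays were below all vehicle GFP- arrays, while the GFP+ arrays of both stimuli overlapped. Its excess in GFP+ cells was 1.37 ± 0.38 (adjusted p = 0.0152) in vehicle and 3.00 ± 0.38 (adjusted p = 1.18e-05) in odor pools. The vehicle call was lost without vehicle GFP+ replicate 1, at 1.06 (adjusted p = 0.0547).

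The pool differences of Olfr124 were 1.82, 0.62, 1.46 and 1.58 in vehicle and 2.99, 4.03, 2.03 and 2.94 in odor pools, which do not overlap. The excess changed by 1.63 ± 0.54, or 3.09-fold, with an unadjusted p of 0.00788 and an adjusted p of 0.891. Over 23 alternatives this value lay between 1.25 and 1.98 with an adjusted p of 0.31 to 1. The lowest vehicle pool difference was that of replicate 2, the pool of the array with high negative controls. Odor against vehicle gave -1.37 ± 0.38 in GFP- cells (95% interval -2.17 to -0.56, unadjusted p = 0.00236, adjusted p = 1). In GFP+ cells it gave 0.26 ± 0.38 (95% interval -0.54 to 1.07, adjusted p = 0.921). Olfr124 was the 1 member of 41 whose excess was higher in every odor pool than in every vehicle pool, against 1.85% of all probe sets.

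Olfr134 had the smallest p for a change of the excess. Its pool differences were -1.25, -2.21, -1.60 and -2.75 in vehicle and -2.58, -2.54, -3.34 and -3.40 in odor pools, with 1 vehicle pool inside the odor range. The change was -1.01 ± 0.32 (unadjusted p = 0.00563, adjusted p = 0.854). As given above, the GFP+ signal of Olfr134 was near the negative controls on some arrays, which may limit its size. In GFP- cells its odor value was 0.62 ± 0.22 above vehicle (unadjusted p = 0.0132, adjusted p = 1). Olfr97 had the third smallest p, with -0.66 ± 0.31 (unadjusted p = 0.0481, adjusted p = 0.999). In GFP- cells the third smallest p was that of Olfr111, with 0.63 ± 0.27 (unadjusted p = 0.0347, adjusted p = 1).

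In GFP+ cells the smallest p was that of Olfr130, at -0.37 ± 0.15 (unadjusted p = 0.026, adjusted p = 0.652). Its odor arrays, 10.80 to 11.34, lay below its vehicle arrays, 11.35 to 11.55, with a gap smaller than the spread in odor arrays. Olfr97 had -0.44 ± 0.22 (adjusted p = 0.71) and Olfr91 had 0.54 ± 0.28 (adjusted p = 0.724). Olfr101, the member with the highest excess, had a change of the excess of -0.24 ± 0.37 (95% interval -1.04 to 0.55), with its odor GFP+ arrays (12.25 to 12.93) over the same range as its vehicle GFP+ arrays (12.05 to 12.90).

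Most listed genes of the MHC region did not pass, and most of those that passed were lower in GFP+ cells. Of the listed genes measured, only H2-M3 and Ubd lie among the receptors. Of 42 listed genes of the MHC region 37 were measured. In vehicle pools 2 were higher (5.41%) and 11 lower (29.7%) in GFP+ cells, against 9.34% and 11.8% of all probe sets. In odor pools 2 were higher (5.41%) and 10 lower (27%), against 11.3% and 11.9%. The medians were -0.03 and 0.09, against 0.11 and 0.13 over all probe sets. Among the lower were the classical class I genes H2-D1, by -3.93 ± 0.26 and -3.98 ± 0.26, and H2-K1, by -3.55 ± 0.21 and -3.85 ± 0.21. H2-M3, which presents formylated peptides and lies among the receptors, was lower by -1.44 ± 0.21 and -1.71 ± 0.21. Its means in GFP+ cells, 5.46 in vehicle and 5.18 in odor pools, lay under the negative control median, so the size of both differences is limited by nonspecific signal. H2-M10.3, of a class I group known from vomeronasal neurons, was counted as higher in both sorts, but its group means of 4.79 to 5.97 all lay under that median, so no difference is given. The same holds for H2-M10.5, counted as higher in odor pools, and for H2-Q2, counted as lower in both sorts. H2-M10.6 was higher in vehicle pools by 1.38 ± 0.27 (limma, adjusted p = 0.000944), with a mean of 6.79 in vehicle GFP+ cells. Its vehicle GFP- mean, 5.41, lay under the negative control median. In odor pools H2-M10.6 differed by 0.72 ± 0.27 (adjusted p = 0.0622) and did not pass. Class I genes are used by many cell types, among them the immune cells whose markers were lower in GFP+ cells, and the part of those cells was not tested.

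Of 20 listed genes of olfactory transduction 19 were measured, and 2 of these were higher and 1 lower in vehicle pools, against 9.34% and 11.8% of all probe sets. In odor pools 5 were higher (26.3%) and 1 lower (5.26%), against 11.3% and 11.9% of all probe sets. Pde1c, a calcium-dependent phosphodiesterase of the cilia, was higher by 0.69 ± 0.10 (adjusted p = 4.62e-05) and 0.60 ± 0.10 (adjusted p = 0.000187). Ano2, the calcium-activated chloride channel, was higher by 0.36 ± 0.11 and 0.48 ± 0.11. Grk3, a receptor kinase, was the gene counted as lower, but its 4 group means, the lowest at 5.36, all lay under the negative control median, so no difference is given. Among 22 probe sets of 21 genes for receptor choice and transport, 1 was higher (4.55%) and 2 lower (9.09%) in vehicle pools (limma). In odor pools 0 were higher and 2 lower (9.09%), and 4 and 3 had an unadjusted p under 0.05 in vehicle and odor pools. Of all probe sets 9.34% were higher and 11.8% lower in vehicle pools, and 11.3% and 11.9% in odor pools. Such an unadjusted p was found for 7465 and 7962 of all 22206 probe sets. Lbr, the lamin B receptor that shapes heterochromatin, was lower by -1.89 ± 0.23 in both sorts. The neutrophil and immature neuron markers were lower in the same fraction, and their part in the Lbr value was not tested.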

How the data were processed

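Per the labels' protocols, 50 to 100 ng of total RNA was made into biotin-labelled cRNA for Clariom S arrays. The deposited values are log2 signals, for which the submitters' processing notes name Affymetrix Expression Console. The sources used here do not state its version and algorithm or the build of the probe annotation. From 28846 features, 5222 negative, 1324 positive and 31 other control entries and 63 spike-ins were set aside, which left 22206 probe sets, of which 19572 had 1 symbol and 2634 none. No filter or rescaling was applied to the reported values.

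The 4 group means were fitted over 16 arrays with limma 3.58.1 in R 4.3.3 (lmFit, eBayes, 16.66 total degrees of freedom), checked on simulated data. Tests were two-sided, and p-values were adjusted by Benjamini-Hochberg over all tested probe sets of each of 5 comparisons, with a threshold of 0.05. A value with ± is a difference and its SE unless marked SD. The 4 arrays of a group come from separate pools of 3 mice, and their number limits the precision. Arrays of a group correlated at 0.984 to 0.995.

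GFP+ and GFP- arrays of a pool come from the same mice, and their deviations from the group means correlated at 0.0119 to 0.224. Arrays with the same replicate number correlated at 0.186 to 0.29 in GFP- cells, where every pair was over 0.1, and at 0.0311 to 0.256 in GFP+ cells, where not every pair was. Fits with the pool or the number as a block were alternatives, as were other scalings, a filter on dim probe sets, array weights, another variance prior, fewer groups and leaving out each array.

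The members and gene lists were chosen with earlier results of these data known. Named per sort were up to 8 highest and 8 lowest passing members without overlap between fractions, and per odor comparison the 3 smallest p. Also named were members whose call differed between the sorts, members under the negative controls in all groups, and the ends of ranges. Passing genes of the lists were named only in part. Members passing in a sort with overlap, the neighbours of Olfr114 and Olfr134, and Olfr99 and Olfr110 were named after their values were seen. Protein sequences were not used here, so members with near-identical proteins were not marked. Sequences are from RefSeq (GRCm38.p6), matched by symbol, and were aligned locally. Symbols and gene order are from the RefSeq table, matched by gene ID.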

Additional observations from a re-analysis of the deposited data

Results flagged for a closer look

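In 6 of the 164 groups of 4 arrays (41 members by 4 groups) the highest or lowest array stood far from the others, against 8.2 that chance gives at 1 in 20. Olfr94 was 1.29 lower in vehicle GFP- replicate 3 than on the nearest other array of its group, where the others read 7.66 to 7.85. Without that array its vehicle sort difference passed, at -0.75 (adjusted p = 0.0259). Olfr121 was 1.03 lower on the same array, with the others at 11.13 to 11.33. Olfr95 was 1.35 lower in odor GFP+ replicate 3, with the others at 12.21 to 12.3, and Olfr122 was 0.64 higher there, with the others at 9.88 to 9.98. Olfr107 was 0.59 lower in odor GFP- replicate 3, with the others at 10.9 to 10.94. Olfr129 was 0.26 higher in odor GFP- replicate 1, with the others at 12.13 to 12.17. None of the 6 was on the array of vehicle GFP+ replicate 2, whose negative controls were high.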

How the results depend on the processing

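Of the 20 members called in vehicle pools 16 kept their call under every alternative run, and Olfr91, Olfr109, Olfr124 and Olfr132 lost it at least once. Of the 22 called in odor pools 19 kept it, and Olfr111, Olfr128 and Olfr129 lost it at least once. Leaving out 1 array at a time gave 8 to 11 higher and 9 to 12 lower members in vehicle pools, and 9 to 11 higher and 11 to 13 lower in odor pools. The same gave 0 to 0 in each direction of the 3 odor comparisons. With the pool of mice as a replicate block, which pairs the fractions, 10 members were higher and 12 lower in vehicle pools and 10 higher and 13 lower in odor pools, and no call was lost. The calls gained were Olfr111 and Olfr128 in vehicle pools and Olfr131 in odor pools. With the replicate number as a block, 0 members passed in the odor comparisons, so the blocks changed no other call. Alternatives were followed for the members called in a sort and for the 3 with the smallest p in each odor comparison. Of their directions 1 turned, that of Olfr97 in vehicle pools, which did not pass and was 0.04 (adjusted p = 0.861) with array medians set equal. Equal medians shift the sort differences by about 0.348 and 0.326, so members that were not followed and lie closer to 0 can turn too. Signal under the negative controls limits Olfr108, and Olfr127 in GFP+ cells. Olfr128 lay under the negative control median of its own array on 3 GFP+ arrays, Olfr114 on 2 and Olfr126 on 1. Olfr134 lay just above that median on vehicle GFP+ replicate 2 and odor GFP+ replicate 3. The size of the differences of these members may be limited too.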
